A study of Drosophila melanogaster with 2 samples.

Results

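Peaks of a Dip2-eGFP fusion protein were examined at 10 genes for insulator and architectural proteins of Drosophila melanogaster: Chro, pzg, row, BEAF-32, CTCF, su(Hw), mod(mdg4), Cp190, Ibf1 and Ibf2. The genes were chosen by name, with earlier results of these data known, out of 13968 protein-coding genes on the 7 chromosome arms. A peak was assigned to a gene when its summit lay in the gene body or within 1 kb of it in the Ensembl models of dm6. The data come from 2 biological replicates of 1 group: whole embryos, 0 to 18 hours old, of a transgenic strain that carries an eGFP fusion of Dip2, with Dlip2 named as the targeted gene. Dip2 is a RefSeq synonym of Dlip2, but DIP2 is also the symbol of a different gene in RefSeq. Which protein was tagged therefore rests on the label that names Dlip2, and was not tested. Chromatin was sonicated and the fusion was precipitated with an antibody against GFP. The sources used here do not give the promoter that drives the fusion, and an embryo pool of this age span mixes cell types, so a peak cannot be placed in a cell type or a stage.

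Insulators are DNA elements that separate regulatory domains of chromatin. In flies, sequence-specific proteins such as CTCF, Su(Hw), BEAF-32, Ibf1 and Ibf2 bind them, and the cofactors Cp190 and Mod(mdg4), which carry BTB domains, join them there. Chro (Chromator, a chromodomain protein) and Pzg (Putzig, also called Z4, a zinc finger protein) are found together in the interbands of polytene chromosomes, and Row is a zinc finger relative of Woc.

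The authors deposited 4 thresholded peak lists, 1 for each replicate and 2, called conservative and optimal, from the alignments of both, each with a longer ranked list of candidates. The lists hold 550 (replicate 1), 742 (replicate 2), 629 (conservative) and 973 (optimal) peaks. Each peak has a signal given by the authors on a scale that no deposited text explains, so signals were ranked within a list only. Each also has a scaled score from 0 to 1000 of the irreproducible discovery rate (IDR), where a higher score is a lower IDR; the lowest thresholded score was 830, and 831 in replicate 2. The files hold no read counts, and the depth of the libraries is unknown. Peaks of the ranked lists mostly have 1 fixed width (364 bp for 99.7% of conservative candidates) with the summit at the centre, and so carry a coarser position than narrower peaks.

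In the conservative list 5 of the 10 genes held a thresholded summit: Chro, pzg, row, mod(mdg4) and Cp190. The same rule called 5.43% of all protein-coding genes. Because the genes were chosen with earlier results of these data known, these shares stand side by side and are not a test. No thresholded peak in any of the 4 lists lay in or within 1 kb of BEAF-32, CTCF, su(Hw), Ibf1 or Ibf2. Grouped by role, a grouping made after the values were seen, the 2 cofactor genes and the 3 genes Chro, pzg and row had a peak each. The 5 genes of proteins that bind insulator DNA had none. With 5.43% of all protein-coding genes called, none of 5 is near the share over all genes, and is no result about their role. The 5 genes with a peak were also the longer ones, at 4212 to 26556 bp against 775 to 4135 bp, and the part of length in this division was not tested. Within 500 bp of an annotated start, 4 of the 10 genes (Chro, pzg, row and Cp190) held a conservative summit, against 2.87% of protein-coding genes. That rule gave 4 genes in the optimal list (3.89%), and Chro, pzg and Cp190 in replicate 1 (2.05%) and in replicate 2 (3.09%).

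The call was the same in the optimal list, with 5 of 10 genes against 7.34% of protein-coding genes. Replicate 1 alone gave 4 genes (background 4.11%) and replicate 2 alone gave 4 (background 6.08%), in both cases Chro, pzg, mod(mdg4) and Cp190. The gene that neither replicate called by itself was row. All 5 genes were called in the conservative list with 500 bp (background 4.67%) or 2 kb (6.87%) around the gene, by overlap of the peak (5.67%) and with RefSeq models (5.38%). Among peaks at or above the median signal 3 remained, Chro, mod(mdg4) and Cp190, against 2.98% of protein-coding genes. In the conservative list the 5 called genes scored 905 to 1000, above a threshold that defines the call, and the best candidate of the others scored 317. In the replicates the best uncalled candidate was that of row, at 764 and 799.

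**Figure D1:**
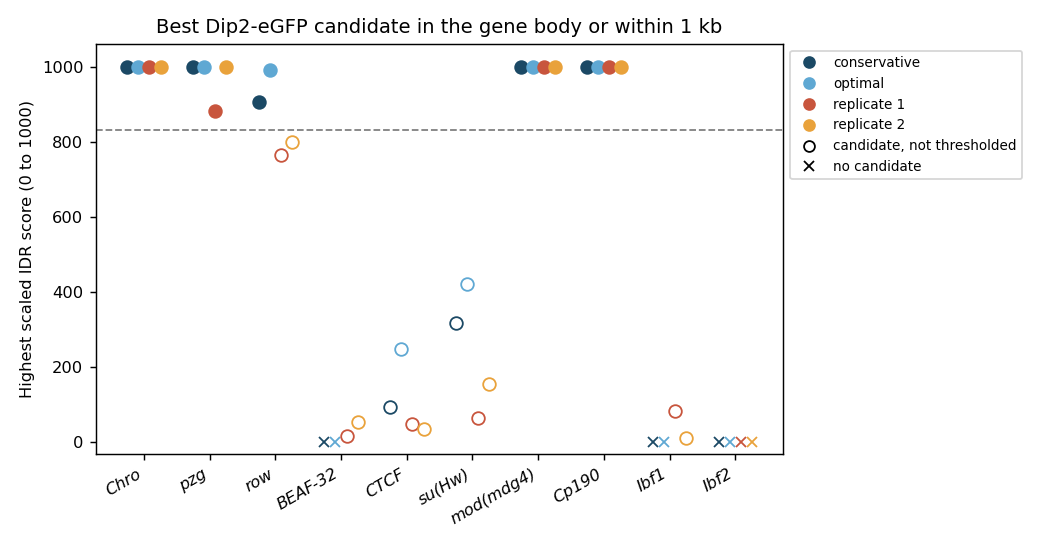
Highest scaled IDR score (0 to 1000) of any candidate in the gene body or within 1 kb, for the 10 genes in the 4 lists; filled points are thresholded peaks, open points are other candidates, crosses are lists with no candidate, and the dashed line is the lowest thresholded score, 830. Chro, pzg, mod(mdg4) and Cp190 lie above the line in all lists, row only in the conservative and optimal lists, and the other genes stay at or below 421.

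Cp190, whose protein is the cofactor recruited by several of the DNA-binding insulator proteins, lies on the minus strand of 3R at 15270432 to 15275241. Its peak (chr3R:15275228-15275591) had a signal of 172 in the conservative list, rank 243 of 629, with 61.4% of peaks below it. The signal was 65.2 in replicate 1 (rank 303 of 550) and 110 in replicate 2 (rank 243 of 742), with a score of 1000 in both. In rank over the whole lists, which differ in their share of peaks off the arms, the site was thus lower in replicate 1. There 44.9% of peaks had a weaker signal, against 67.3% in replicate 2. The conservative summit lay 169 bp upstream of the Cp190 start and 112 bp upstream of the start of CG4338, which runs the other way from 281 bp further along. Summits of the replicates were 75 bp apart, and both stayed between these starts, at 238 and 163 bp upstream of Cp190. The second start of Cp190 lies 620 bp from the summit. An antisense RNA gene, asRNA:CR46081, also lies within 1 kb, as does MRG15 of the replicate 1 summit, but their starts were 807 bp (conservative) and 2630 bp (replicate 1) away.

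The sequence between the Cp190 and CG4338 starts holds the whole stretch where the summits fell, and is shown because no exon of either gene covers it. It is read on the plus strand from RefSeq's sequence of the same assembly, at chr3R:15275242-15275521, with the base of the conservative summit and the match to CGATA in capitals.
Cp190 to CG4338: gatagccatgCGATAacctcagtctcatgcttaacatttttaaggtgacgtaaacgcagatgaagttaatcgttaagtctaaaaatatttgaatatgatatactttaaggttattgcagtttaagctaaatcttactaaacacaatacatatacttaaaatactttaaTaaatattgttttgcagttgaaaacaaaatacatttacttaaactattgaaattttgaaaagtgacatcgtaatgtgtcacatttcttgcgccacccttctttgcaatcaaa

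The site at mod(mdg4) lay far from the gene's own start and close to starts of other annotated genes within it. The protein is a BTB-domain cofactor made in many forms, because a shared 5' part of the transcript is joined by trans-splicing to different 3' parts, some of them transcribed from the opposite strand. The annotation lists these 3' parts as 23 pre-mod(mdg4) genes, 14 on the strand of mod(mdg4) and 9 on the other. The peak (chr3R:21365272-21365635) had its conservative summit 11947 bp downstream of the annotated mod(mdg4) start. It lay 155 bp upstream of the start that 7 pre-mod(mdg4) genes on the plus strand share (U, V, W, X, Y, AD and AE). It also lay 164 bp upstream of the start that 3 on the minus strand share (C, E and AB), and 34 bp downstream of a further start of pre-mod(mdg4)-E.

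Signal at this site was 155 in the conservative list (rank 262 of 629), 55.7 in replicate 1 (rank 363 of 550) and 99.6 in replicate 2 (rank 261 of 742), each with a score of 1000. The replicates' summits were 27 bp apart, with 34% of replicate 1 peaks and 64.8% of replicate 2 peaks weaker. The conservative ranked list had 13 candidates along mod(mdg4), the first 11049 bp from the start and the last 27149 bp from it. The first of these, also the next by score (629, signal 51.9), lay downstream of the start that 7 plus-strand pre-mod(mdg4) genes share. It was upstream of a further start of U and V. The candidates nearest to it in the replicates, 10965 and 11037 bp from the mod(mdg4) start, scored 15 and 65. No candidate of this list fell near the gene's own start. Among the 771 protein-coding genes at least as long as mod(mdg4) (26556 bp), 14.9% held a conservative summit by the same rule, so a call in a gene of this length was more common than over all genes.

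**Figure D2:**
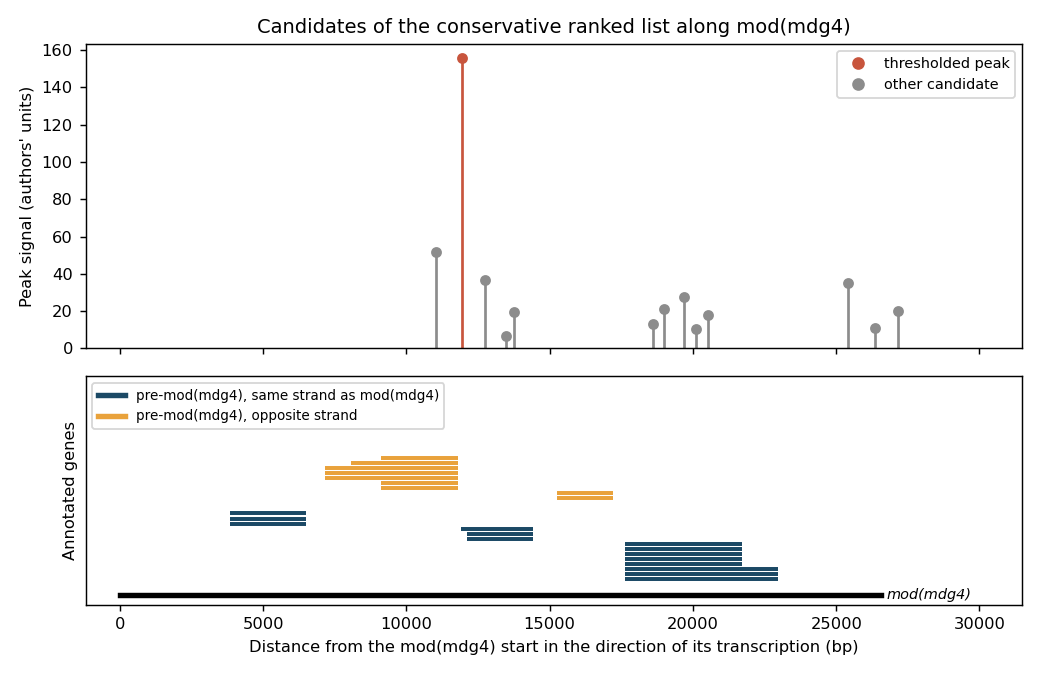
Upper plot, signal of the 13 candidates of the conservative ranked list against distance from the mod(mdg4) start in bp, with the thresholded peak in red; lower plot, the annotated mod(mdg4) gene (black) and the 23 pre-mod(mdg4) genes by strand. The thresholded peak, at 11947 bp, lies between groups of genes that run away from it in both directions, and inside 1 transcript of pre-mod(mdg4)-E.

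Chro held the strongest site of the 10 genes. Its peak (chr3L:22878795-22878996) had a signal of 355 in the conservative list, rank 150 of 629, with 76.2% of peaks below it. In replicate 1 the signal was 160 (rank 140 of 550) and in replicate 2 it was 193 (rank 157 of 742), so both replicates put it at a like height, above 74.5% and 78.8% of their peaks. The position was sharp: the peak was 202 bp wide, 127 bp in replicate 1 and 174 bp in replicate 2, all below the fixed widths, and the replicates' summits were 2 bp apart. The summit lay 130 bp upstream of the start used by 3 annotated Chro transcripts. It was also 86 bp downstream of the start of 1 longer transcript, in the non-coding part of its first exon. The remaining one of the 3 annotated Chro starts lay further from the summit. On the other strand the first start of Ssl1, the gene of a TFIIH subunit, began 191 bp away, and the summit was upstream of it too. An antisense RNA gene, asRNA:CR45970, also lay within 1 kb, with its start 1501 bp from the summit.

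At pzg the peak (chr3L:21285676-21286039) had a conservative signal of 115, rank 353 of 629. The replicates placed it unlike each other, with a signal of 40.9 in replicate 1 (rank 495 of 550, score 881) and of 73.0 in replicate 2 (rank 350 of 742, score 1000). It stood above 10% of all replicate 1 peaks by signal, against 52.8% in replicate 2, with peaks off the arms counted. The summit was 241 bp upstream of the pzg start. It was 422 bp upstream of the start of 3 CG12974 transcripts, which run the other way, and 104 bp downstream of the start of a longer CG12974 transcript. Replicate summits were 47 bp apart, the one of replicate 1 lying 291 bp upstream of pzg.

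The weakest of the 5 was row. Its peak (chr2R:15213512-15213875) had a conservative signal of 71.5, rank 573 of 629, and a score of 905, while the optimal list gave the same peak a score of 990 and rank 712 of 973. The candidate of replicate 1 scored 764 (signal 37.0, IDR 0.0144) and that of replicate 2 scored 799 (signal 36.6, IDR 0.0119), both below the lowest thresholded scores of 830 and 831. All lists put the summit at the same base, 60 bp upstream of the row start. The only gene sharing this peak was CG8093, by its 3' end, on the same strand as row.

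**Figure D3:**
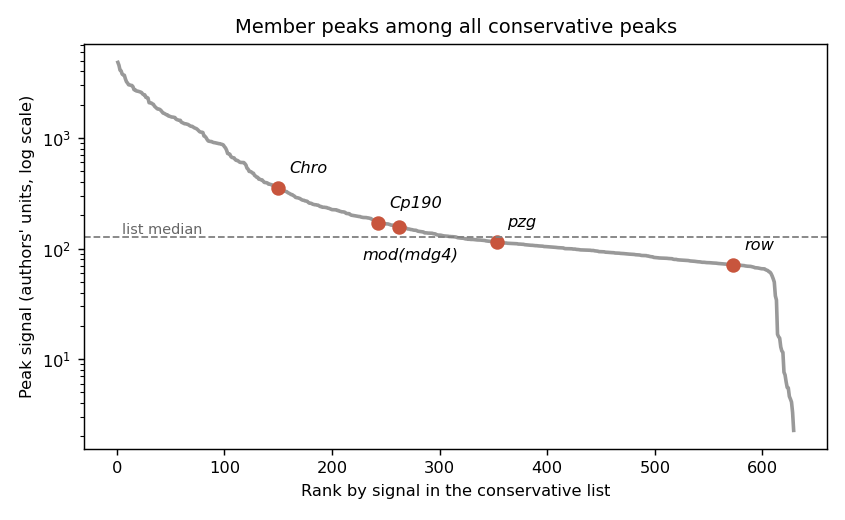
Signal (authors' units, log axis) against rank for the 629 peaks of the conservative list, with the peaks of the 5 genes in red and the list median, 127, as a dashed line. Chro, Cp190 and mod(mdg4) lie above the median with signals of 355, 172 and 155, and pzg (115) and row (71.5) below it.

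Around the summits a shared arrangement was seen. At Chro, pzg, mod(mdg4) and Cp190, which is 4 of the 5 sites, starts of protein-coding genes on both strands lay within 500 bp of the conservative summit. Over all 611 conservative peaks on the arms this held for 17.8%, and for 37.1% of those with any protein-coding start within 500 bp. The mod(mdg4) site counts only through starts of pre-mod(mdg4) genes, the 3' parts of mod(mdg4) itself, since the gene's own start is 11947 bp away. In these 4 loci the summit was upstream of a start on each side, from 112 to 422 bp away. The nearest start, though, was one that the summit lay downstream of at Chro (86 bp), pzg (104 bp, CG12974) and mod(mdg4) (34 bp, pre-mod(mdg4)-E). At these sites the summit fell in the non-coding part of an exon, and at Cp190 it fell between genes. A start within 1 kb upstream on the opposite strand is annotated for 6 of the 10 genes (60%) and for 35.2% of protein-coding genes. Of protein-coding genes with such a neighbour 7.61% held a conservative summit, against 4.25% of those without. Such a neighbour was also present where no peak was called: Ibf1 and Ibf2 start 463 bp apart and run away from each other, and su(Hw) starts 500 bp from Polr2I, the gene of an RNA polymerase II subunit.

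**Figure D4:**
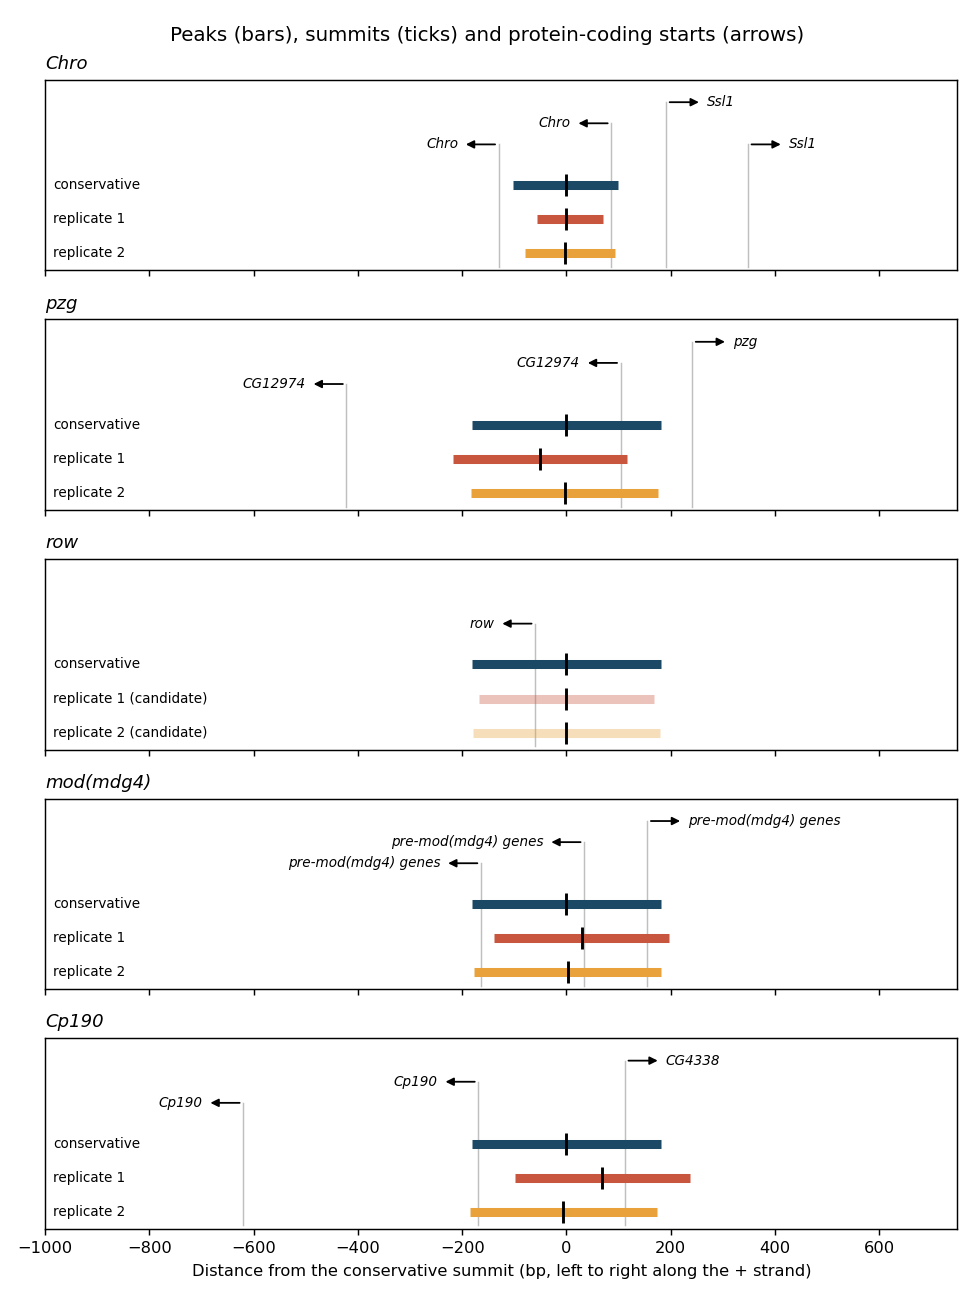
Peaks (bars) and summits (ticks) of the conservative list and of each replicate, and starts of protein-coding genes (arrows, pointing in the direction of transcription), against distance in bp from the conservative summit; pale bars are candidates below the threshold. At 4 of the 5 genes the summits sit between starts that point away from each other. At Chro, pzg and mod(mdg4) the summits also lie downstream of a further start. The remaining annotated Chro start, further away, is not drawn. At row, where the replicates' bars are pale, a single start lies 60 bp away.

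Among the genes with no thresholded peak in any list, su(Hw) had the highest candidate score in the conservative and optimal lists and in replicate 2, and Ibf1 in replicate 1. The su(Hw) gene's best conservative candidate scored 317 (signal 47.9, IDR 0.172) and lay 1271 bp into the gene, in a coding exon. The score of that gene's best candidate was 421 in the optimal list, 64 in replicate 1 and 154 in replicate 2, where it lay at another position, 468 bp from the start. CTCF had 4 conservative candidates, the best of which scored 95 and lay 9 bp from the start. In the optimal list its best candidate scored 247 and lay 1833 bp into the gene, in a coding exon. In the replicates the best CTCF scores were 49 and 36, at other positions in the gene. BEAF-32 and Ibf1 had no candidate in the lists made from both replicates, and their best scores in a single replicate were 55 (BEAF-32, replicate 2) and 84 (Ibf1, replicate 1). Ibf2 had no candidate in any list. Genes without a conservative candidate made up 16.7% of protein-coding genes, and 3 of the 10 examined here. The nearest conservative summit to these 5 genes was 80164 bp from BEAF-32 and 358017 bp from CTCF at the extremes.

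Sequence at the summits was compared next, within 100 bp on both strands. The core of the CTCF motif (AGAGGGC, or in its place AGATGGC, or else AGGGGGC, or otherwise AGGTGGC) occurred at none of the 5 summits and in 32.6% of all 611 conservative peaks, against 9.27% of candidates outside the thresholded list. The nearest was at pzg, 138 bp from the conservative summit and within 100 bp of the summit of replicate 1. CGATA, a part of the sites of DREF and BEAF-32, occurred at Chro, pzg and row, against 30.9% of all peaks and 19.6% of candidates. That count of 3 was 1 within 50 bp of the summit and 4 within 250 bp. With a replicate left out row had no thresholded peak, and the count was 2 of 4 sites without replicate 1 and 1 of 4 without replicate 2. At Chro it was centred 4 bp from the summit. TATAAA occurred at Chro and row, against 37.0% of peaks and 14.6% of candidates, and at 1 of the 5 sites within 50 bp. It was at 1 of the 4 sites without replicate 1 and at 2 of the 4 without replicate 2, row not being among them. The 4 remaining motifs, TATCGATA (the DRE of DREF and BEAF-32, which holds CGATA on both strands), GGTCACAC (motif 1), TGCATAC (a part of the Su(Hw) site) and GAGAG (GAGA factor), were at none of the 5. Over all peaks TATCGATA occurred in 2.78%, GGTCACAC in 0.982% and TGCATAC in 3.76%, and GAGAG in 122 of 611. A match is a run of letters and is not a binding site.

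The bases at the summits are shown to let the sites be compared, on the plus strand (RefSeq, same assembly). Capitals mark CGATA at Chro and the summit base elsewhere. The conservative peaks of pzg, mod(mdg4) and Cp190 have the fixed width of 364 bp with the summit at the centre. Their marked bases are therefore coarser positions than the summit at Chro. The row site is named only.
Chro, chr3L:22878884-22878913: ttgcctgtCGATAgctttaaactaactgca
pzg, chr3L:21285844-21285873: atttatttgtatttAaccactcagcaatcg
mod(mdg4), chr3R:21365440-21365469: tggtattggtactaAtaaatacgtcatgca
Cp190, chr3R:15275396-15275425: ttaaaatactttaaTaaatattgttttgca
GC content of the 201-base windows was 25.4% at Cp190, 28.4% at mod(mdg4), 31.3% at pzg, 32.8% at row and 37.8% at Chro, against a median of 36.3% over conservative peaks and 46.8% over candidates outside the list. The share of conservative peaks with a lower GC content was 2.78% for Cp190, 9.33% for mod(mdg4), 22.3% for pzg, 29.3% for row and 58.4% for Chro, so Chro lay above the median and the others below it.

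The DRE was common in the promoters of these genes. It was within 100 bp of none of the 5 summits, which is near its share of 2.78% over all conservative peaks. That absence is no result about these sites. In the window from 250 bp before to 50 bp after the gene's start, TATCGATA occurred in 6 of 10 (BEAF-32, CTCF, mod(mdg4), Cp190, Ibf1 and Ibf2) and in 9.36% of all protein-coding promoters. Of these 6 promoters, Cp190's was the only one with a thresholded summit within 500 bp, and there the DRE spanned the start, 168.5 bp from the summit. Over all protein-coding genes 2.87% held a conservative summit within 500 bp of a start. The share among genes with a DRE is not given here. The promoters of Chro, pzg and row, which had a summit within 500 bp of a start, held no DRE. That is near the share of 9.36% over all promoters. These counts are small and are no result about the DRE and the peaks. The Chro summit, 86 bp downstream of the gene's start, lay outside this window. At mod(mdg4) the DRE was 50.5 bp upstream of the gene's own start, where no candidate of the conservative list lay. Motif 1 occurred in the su(Hw) promoter alone of the 10, against 7.69% of promoters, and GAGAG in none, against 29.7%. The DRE matches of 5 of them are shown in capitals, that of BEAF-32 being named only, with 11 bases on each side (plus strand, RefSeq).
CTCF, chr3L:7356716-7356745: gtaccgccagcTATCGATAgttcgattggt
mod(mdg4), chr3R:21377437-21377466: aagtgacaataTATCGATAgcttaaaatat
Cp190, chr3R:15275227-15275256: cgctcggcagcTATCGATAgccatgcgata
Ibf1, chr3R:9258913-9258942: caaaatggtttTATCGATAtgtcgatacat
Ibf2, chr3R:9258490-9258519: ttcaaccgatgTATCGATAacatgccatcg
Those of Ibf1 and Ibf2 are separate matches, although the genes share 1 upstream region.

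A wider list of 32 genes for architectural and partner proteins, among them GAGA factor, cohesin, condensin and the MSL and NSL partners, was read by the same rule. In the conservative list 1 of the 32 (3.13%, against 5.43% of protein-coding genes) held a summit, Trl, which encodes GAGA factor. Its peak in an intron had a signal of 364 (rank 147 of 629) and was a thresholded peak in both replicates, at 156 and 207. The replicates' summits lay 1541 and 1540 bp upstream of the nearest start, and 1546 and 1547 bp downstream of the gene's first start. A second Trl peak was called in the optimal list (signal 62.4) and, at another position, in replicate 2 (signal 55.6). The optimal list gave 3 of the 32 (9.38%, against 7.34%), since it also held Cap-H2 and JIL-1, which are named after their values were seen. Cap-H2, a condensin II subunit gene, had a signal of 71.0 at a summit 155 bp upstream of its start and 123 bp upstream of that of MED7. JIL-1, the gene of a histone H3 kinase, had a signal of 78.2 in an intron. In replicate 2 this gene had intron peaks with signals of 65.5 and 40.8. Each replicate's list gave 2 of the 32 (6.25%, against 4.11% in replicate 1 and 6.08% in replicate 2), Trl in both, with Cap-H2 in replicate 1 and JIL-1 in replicate 2.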

How the data were processed

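ChIP-seq peaks were analysed from whole embryos (2 biological replicates). The authors deposited narrowPeak-type lists in dm6, per the labels, with a signal value, a scaled IDR score and, in the ranked lists, −log10 IDR values, per the file's column order; the sources used here name no aligner or peak caller. Positions (start, end and summit) are those deposited, with starts and summits written as 1-based positions. Every thresholded peak was found in 1 ranked list, which was taken as its candidates. The conservative list was the main one. Summits were converted to 1-based positions, assigned to genes with Ensembl release 115 (transposable elements left out), and sequence was read from RefSeq's genome of the same assembly. Genes, motifs, GC content and starts were read at peaks on the 7 chromosome arms (611 of 629 conservative peaks). Ranks, median signals and shares of weaker peaks were taken over whole lists. The deposited lists hold no counts, so no value has a counting error. With 1 group, no test was made; members are read against the share of all protein-coding genes. Python 3.11.15, pandas 2.3.3 and pysam 0.24.0 were used, and assignment and motif functions were checked on simulated data. The members and lists were chosen with earlier results of these data known. The text names all 10 genes, genes sharing their peaks, and further architectural genes with a thresholded peak; SA and Mtor of that list were matched to SA1 and Mgtor by RefSeq synonyms. Alternatives were the other lists, a stricter signal limit, distances of 500 bp and 2 kb, starts only, overlap of at least 1 bp, RefSeq models and motif windows of 50 and 250 bp.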

Additional observations from a re-analysis of the deposited data

How the results depend on the processing

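Leaving out a replicate gave 4 called genes for either, in place of 5. With only the conservative peaks at or above the median signal it was 3 (Chro, mod(mdg4) and Cp190), and the background was 2.98%; with starts only the background was 2.87%. Without replicate 1 and without replicate 2 the background was 4.11% to 6.08%. The median share of peaks weaker than those of the called genes was 58.3%, and 39.5% to 66.0% when a replicate was left out. The highest score among BEAF-32, CTCF, su(Hw), Ibf1 and Ibf2 was 421 in the optimal list and 84 to 154 with a replicate left out, against 317; row, uncalled in either replicate, scored 764 and 799 there. The CTCF core occurred at 1 of the 5 sites with windows of 250 bp, and at 0 to 1 of the 4 called sites when a replicate was left out. The cause of these differences was not tested. No paired analysis was possible because there is 1 group. The absence of a peak is limited by depth, which is unknown.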
